A study of Mus musculus with 10 samples.

Results

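CD28 and ICOS are the paired costimulatory receptors through which a T cell reads the state of the cell that presents antigen to it. Both bind ligands of the B7 family and carry a short cytoplasmic tail whose phosphorylated tyrosine recruits phosphoinositide 3-kinase. CD28 is already present on resting T cells and delivers the signal that accompanies the first antigen encounter, whereas ICOS appears after activation. CD226, CD2 and SLAMF1 are costimulatory or adhesion receptors of the immunoglobulin superfamily that bind other ligands: nectin family proteins for CD226, CD48 for mouse CD2, and SLAMF1 itself on the neighbouring cell for SLAMF1. The 5 genes described here are Cd28, Icos, Cd226, Cd2 and Slamf1. They were chosen by name with earlier results of these data known, and with no threshold on measured values. They are 5 of the 34932 genes to which the transcripts in the files could be assigned, and all 5 were among the 11781 genes with enough counts to be tested.

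The libraries came from Pmel CD8+ T cells, which carry a transgenic T cell receptor for the melanoma antigen gp100 and the Thy1.2 allele. The cells had been transduced with a murine stem cell retrovirus that also encodes Thy1.1, either empty (MIT-Empty) or carrying mouse BATF, a basic leucine zipper transcription factor (MIT-BATF). They were transferred into Ly5.1 mice bearing B16-F10 melanoma, and 7 days later Thy1.1+ cells were sorted from the tumors, 2000 per sample, for full-length SMART-Seq2 RNA-seq. There were 5 libraries labelled MIT-BATF and 5 labelled MIT-Empty. Per the study's methods, donor and recipient mice were male and female and 8 to 12 weeks old, and BATF was expressed from the retroviral vector beside the endogenous locus. Counts assigned to Batf do not tell these sources apart.

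The total count per library ranged from 10702740 to 34102086 in the libraries labelled MIT-BATF and from 6534472 to 21355657 in those labelled MIT-Empty. In 4 library pairs, all within a group, nearly every gene count of the smaller library was within that of the larger: replicate 4 within replicate 2 and replicate 5 within replicate 3, in both groups. Only 0.286% to 0.661% of genes had more counts in the smaller library, against 3.54% or more for any other pair of libraries. These 4 contained libraries therefore do not appear independent of the libraries that hold them, and the tests of the 5 receptors and of the called genes are given for the counts as deposited and again with the shared reads counted once, that is, after the contained library was subtracted from its holder. Values in TPM, their ratios, the likeness between genes and the list genes not called rest on the deposited values alone unless stated. The mean level of Batf itself, the transduced gene, was 21.9 ± 5.54 CPM (CPM being counts scaled to the size of the library; SD, n = 5) under the MIT-BATF label and 29.2 ± 14.8 CPM (SD, n = 5) under the MIT-Empty label, with no difference past the threshold (log2 fold change -0.41, SE 0.30, adjusted p = 0.522, edgeR). Batf counts thus did not check the labels, and all directions are given by the labels. Mitochondrial transcripts took 33.2% of counts in MIT-BATF replicate 1 and 11.5% to 23.1% in the other 9 libraries. Among 8 CD8 T cell and T cell receptor complex genes none differed between the groups past the threshold, and Cd4, Foxp3 and Zbtb7b were under 1 TPM, a measure scaled to transcript length and library, in every library. The same was so of Ncr1, Cd79a, Ms4a1 and Pax5, defining genes of natural killer and B cells, and of Flt3, Itgax, Clec9a, Siglech and Cd209a of dendritic cells. Other genes on these lists were present. Of 4 tested natural killer cell genes Kit was called higher, of 2 tested B cell genes Cd79b was called higher and Ighm lower, and of 3 tested dendritic cell genes Xcr1 and Itgax were called higher in the libraries labelled MIT-BATF. Xcr1 (11.4 ± 2.59 against 2.75 ± 0.815 CPM, SD, n = 5) and Ighm (43.5 ± 8.15 against 109 ± 36.8 CPM) were still called with the shared reads counted once, and Kit, Cd79b and Itgax were not. Klre1, the highest natural killer cell gene by TPM, was at 124 ± 42.4 and 81.8 ± 13.9 CPM. The part of such cells in the receptor values was not tested. In contrast, all 6 tested melanocyte genes were lower in the libraries labelled MIT-BATF, where the 8 genes on that list summed to between 2.20 and 13.0 TPM, than in those labelled MIT-Empty, where they summed to between 20.2 and 604 TPM. Mlana, the highest of them by mean TPM, was at 3.22 ± 2.73 TPM and 81.0 ± 106 TPM (SD, n = 5), respectively. With the shared reads counted once, 2 of 5 melanocyte genes were called lower. Of all tested genes, 2.16% were called higher and 2.43% lower as deposited. These shares were 0.575% and 0.683% with the shared reads counted once.

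Cd28, Icos and Slamf1 all lie on mouse chromosome 1 (GRCm38). Cd28 occupies chr1:60716800-60773359 and Icos chr1:60977927-61000320, both on the plus strand. The interval between them, 204567 bp, holds Ctla4 (chr1:60887000-60915832), which encodes the inhibitory receptor that competes with CD28 for CD80 and CD86. Slamf1 lies far from these at chr1:171767127-171801184 on the plus strand and Cd2 is at chr3:101275899-101287939 on the minus strand. The ends of the coding sequences of Cd28, Icos and Slamf1 are shown because each holds a match to a tyrosine motif described below. Coding bases before these stretches were not searched. Each line gives the last 120 coding bases before the stop codon, 5′ to 3′, from the GENCODE M21 transcripts named Cd28-201, Icos-202 and Slamf1-201. Capitals mark the codons of the tyrosine motif.
Cd28: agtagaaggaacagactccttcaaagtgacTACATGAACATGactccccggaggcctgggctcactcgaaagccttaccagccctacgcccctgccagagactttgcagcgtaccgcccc
Icos: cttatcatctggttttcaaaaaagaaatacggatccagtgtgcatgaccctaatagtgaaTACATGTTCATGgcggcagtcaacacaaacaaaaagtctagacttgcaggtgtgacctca
Slamf1: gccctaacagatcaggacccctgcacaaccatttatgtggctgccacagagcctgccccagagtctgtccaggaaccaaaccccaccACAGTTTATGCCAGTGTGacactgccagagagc
The Cd28 stretch lies in a single exon, chr1:60769663-60769782, and its motif at chr1:60769693-60769704. The Icos stretch is joined from 3 exons, chr1:60994693-60994716, chr1:60995524-60995608 and chr1:60997701-60997711, with the motif at chr1:60995560-60995571. The Slamf1 stretch is joined from chr1:171798167-171798238 and chr1:171799573-171799620, with the motif at chr1:171799588-171799605. In Cd28 the capitals encode tyrosine, methionine, asparagine and methionine, and in Icos tyrosine, methionine, phenylalanine and methionine. Both match the motif searched for, a tyrosine codon, any codon, any codon and a methionine codon, which binds the regulatory subunit of phosphoinositide 3-kinase. The asparagine of the CD28 motif additionally allows the adaptors GRB2 and GADS to bind. Of the 21476 genes with a coding sequence of this length, 502 (2.34%) held the motif in frame in their last 120 coding bases, on the coding strand. In Slamf1 the capitals match the immunoreceptor tyrosine-based switch motif (a threonine codon, any codon, a tyrosine codon, any pair of codons and a valine or isoleucine codon), which binds the adaptor SAP, and 129 genes (0.601%) held it. The Cd2 stretch matched neither motif. A match describes the letters and was not tested as a binding site.

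Icos was the receptor whose transcript differed most between the groups. Its level in the libraries labelled MIT-BATF was 489, 358, 340, 378 and 415 CPM in replicates 1 to 5. In the libraries labelled MIT-Empty it was 139, 160, 183, 177 and 245 CPM. The lowest MIT-BATF library lay above the highest MIT-Empty library, so the groups did not overlap, which was also so of 387 of the 11781 tested genes (3.28%). Icos rose 2.19-fold with MIT-BATF (log2 fold change 1.13, SE 0.17, 95% interval 0.77 to 1.49, n = 5 per group, adjusted p = 0.00163, edgeR quasi-likelihood fit, Benjamini-Hochberg adjusted over all tested genes). It was 1 of 5 receptors called higher at an adjusted p under 0.05, beside 2.16% of all genes tested (254 of 11781), and no receptor was called lower, beside 2.43% (286 of 11781). With the shared reads counted once, Icos stayed past the threshold (log2 fold change 1.19, SE 0.23, adjusted p = 0.0183), where the share of genes called higher was 0.575% (64 of 11129). With the contained libraries left out, that is, in replicates 1 to 3 alone, its log2 fold change was 1.33 (SE 0.20, adjusted p = 0.0183, edgeR, n = 3 per group). Replicates 2 and 3, the holders, entered that fit with all their deposited counts. MIT-BATF replicate 1, the library with the highest mitochondrial share, held the most Icos. Without that library the log2 fold change was 1.05 (adjusted p = 0.00223, edgeR). Since these were bulk libraries, more cells that express Icos and more Icos RNA per cell cannot be told apart. Nothing in the labels says that the libraries were prepared on separate days or cultures, and the p-values measure the spread between these samples only. The fit of the deposited counts takes the contained libraries as independent, although they share reads with their holders.

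Cd28, the receptor encoded next to Icos, gave a smaller difference that did not pass the test. It was at 376, 287, 241, 296 and 237 CPM in replicates 1 to 5 labelled MIT-BATF, and at 236, 238, 238, 207 and 236 CPM in those labelled MIT-Empty. Thus 4 of the 5 MIT-Empty libraries lay within a few CPM of each other, MIT-BATF replicates 3 and 5 sat at that level, and the other 3 MIT-BATF libraries sat above it. The log2 fold change was 0.31 (SE 0.15, 95% interval -0.00 to 0.63, adjusted p = 0.280, edgeR), and 0.29 (SE 0.19, adjusted p = 0.687) with the shared reads counted once. The highest value belonged to MIT-BATF replicate 1, the library with the highest mitochondrial share. Without it the log2 fold change was 0.20, the lowest among the fits that left out 1 library.

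Slamf1, a self-ligand receptor of the SLAM family, was the lowest of the 5 transcripts. The libraries labelled MIT-BATF held 60.3, 38.2, 44.1, 32.8 and 38.6 CPM in replicates 1 to 5, and those labelled MIT-Empty 30.7, 18.9, 31.2, 22.5 and 34.8 CPM. Only MIT-BATF replicate 4, at 32.8 CPM, fell within the MIT-Empty range, below MIT-Empty replicate 5. The log2 fold change was 0.63 (SE 0.20, 95% interval 0.21 to 1.06, unadjusted p = 0.00635), and the adjusted p of 0.0920 missed the threshold in edgeR. DESeq2, run on the same counts, gave 0.64 with an adjusted p of 0.0425, where 3.27% of genes were called higher. The log2 fold change was 0.74 with the shared reads counted once (SE 0.22, adjusted p = 0.146, edgeR) and 0.85 in replicates 1 to 3 alone (SE 0.25, adjusted p = 0.177). The estimate was thus positive in each of these fits, with a call from DESeq2 on the deposited counts only. The highest Slamf1 value also belonged to MIT-BATF replicate 1, the library with the highest mitochondrial share. Without that library the log2 fold change was 0.49 (adjusted p = 0.131, edgeR).

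Cd2, an adhesion receptor that binds CD48, spread widely within both groups. Its level was 126, 151, 175, 201 and 176 CPM in replicates 1 to 5 labelled MIT-BATF. In those labelled MIT-Empty it was 109, 110, 136, 72.1 and 184 CPM. MIT-Empty replicate 5 exceeded 4 of the 5 MIT-BATF libraries, and its holder, replicate 3, exceeded 1 of them. The log2 fold change of 0.44 (SE 0.21, 95% interval -0.01 to 0.89, adjusted p = 0.291, edgeR) did not pass the test, nor did that with the shared reads counted once (0.44, SE 0.25, adjusted p = 0.604).

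Cd226, the activating receptor that shares its ligands with the inhibitory receptor TIGIT, was the only 1 of the 5 with a negative estimate. It lies at chr18:89176967-89272229 (GRCm38), on the plus strand. The libraries labelled MIT-BATF held 133, 87.0, 81.3, 110 and 142 CPM in replicates 1 to 5, and those labelled MIT-Empty 149, 147, 120, 150 and 158 CPM. MIT-BATF replicates 1 and 5 lay above MIT-Empty replicate 3, and the other 3 lay below every MIT-Empty library, so the groups overlapped. Of all tested genes, 3.17% were lower without overlap on the CPM scale. The log2 fold change was -0.39 (SE 0.17, 95% interval -0.75 to -0.03, unadjusted p = 0.0373), and the adjusted p was 0.238 (edgeR). It was -0.49 (SE 0.31, adjusted p = 0.682) with the shared reads counted once. On the length-normalized TPM scale, the groups did not overlap: 36.1 to 44.1 TPM in the libraries labelled MIT-BATF against 44.8 to 48.8 TPM in those labelled MIT-Empty, as for 260 of 11781 genes that were lower without overlap on that scale (2.21%). Icos was the only receptor higher without overlap in TPM, beside 1.82% of genes. The gap between the highest MIT-BATF and the lowest MIT-Empty library was small, and the TPM values contain the same contained libraries. With transcript length offsets in the fit, the log2 fold change of Cd226 was -0.22 (SE 0.17, adjusted p = 0.547, edgeR). By limma on log2(TPM + 1) it was -0.24 (adjusted p = 0.531).

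**Figure D1:**
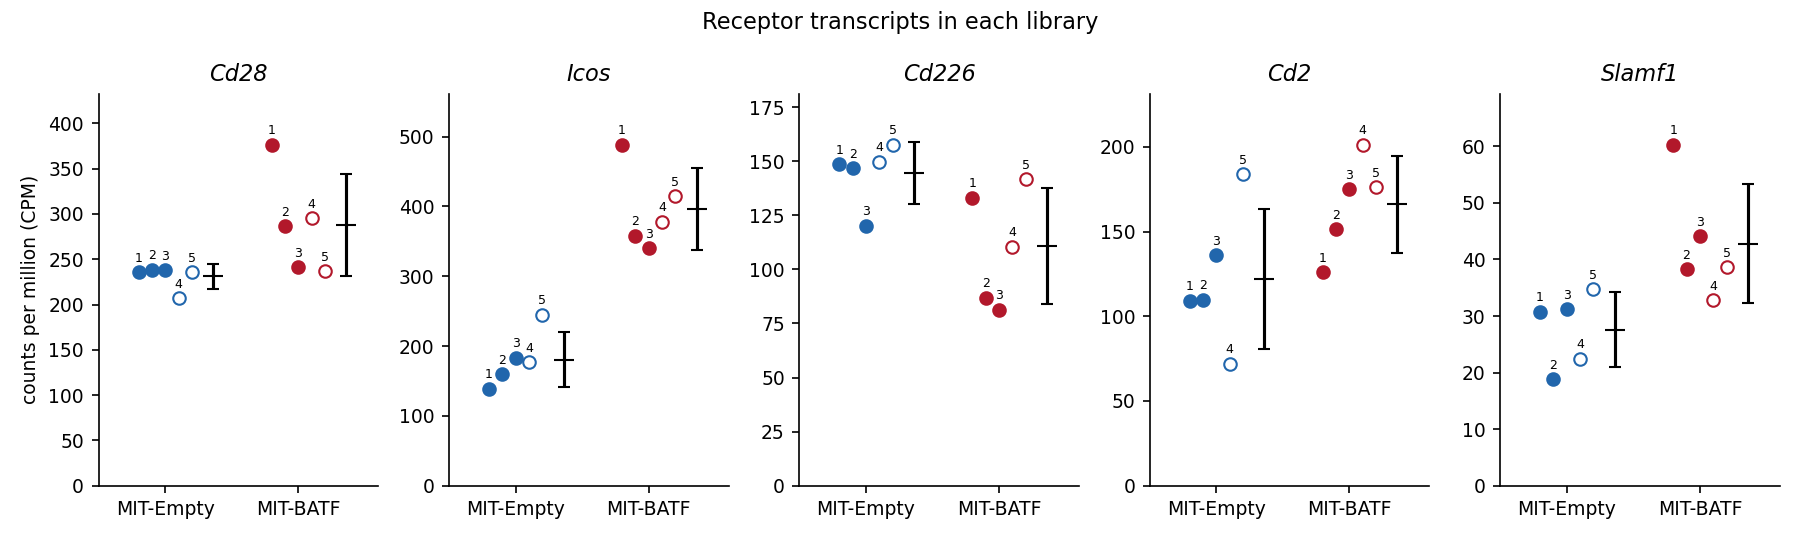
CPM of the 5 receptor transcripts in each library (vertical axis from 0, a separate scale per gene), with MIT-Empty in blue and MIT-BATF in red, replicate numbers above the points, open points for the 4 contained libraries, and a bar for the mean and SD of 5 libraries. The groups are apart for Icos (340 to 489 CPM against 139 to 245 CPM) and overlap for the other 4 genes.

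The fold changes of the receptors kept their order of size between the deposited counts and the counts with shared reads taken once, from Icos at the top, through Slamf1, Cd2 and Cd28, to Cd226. The 95% intervals of Icos and Slamf1 lay above 0 in both fits and in replicates 1 to 3 alone, whereas those of Cd28 and Cd2 reached below 0 in each. That of Cd226 lay below 0 for the deposited counts and reached above 0 when the shared reads were counted once (-1.15 to 0.18).

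**Figure D2:**
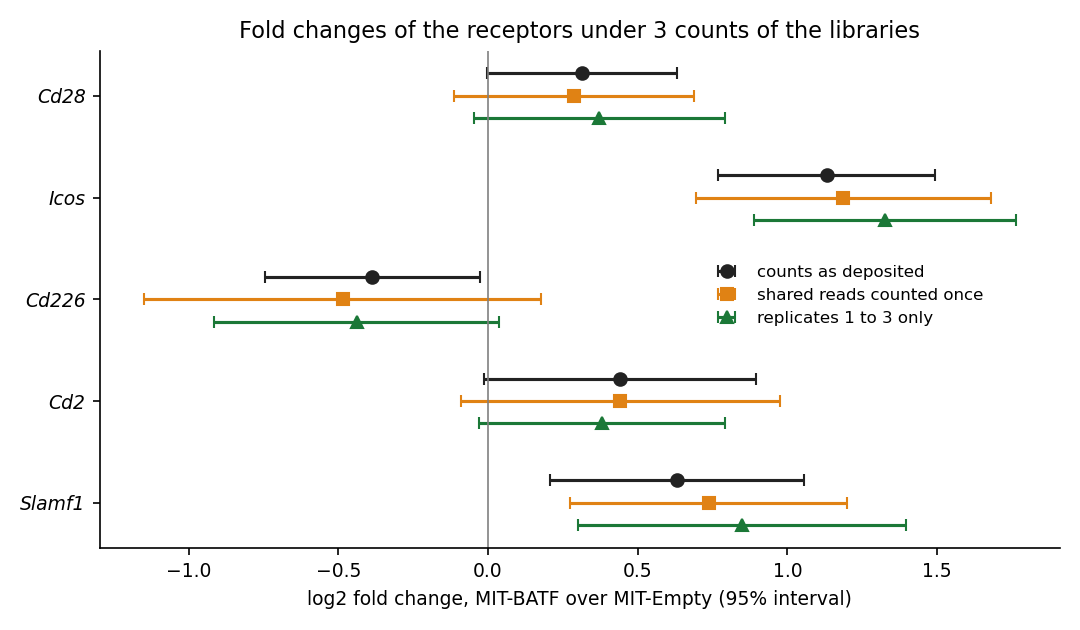
Log2 fold change, MIT-BATF over MIT-Empty, of each receptor (horizontal axis, with 95% intervals from edgeR) for the counts as deposited (black circles), the shared reads counted once (orange squares) and replicates 1 to 3 alone (green triangles). The 3 Icos intervals lie above 0.69, and the other genes lie nearer to 0.

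Transcripts of different lengths can be set side by side only per length, so the order of the receptors was taken from TPM. In the libraries labelled MIT-Empty, Cd2 was highest at 69.2 ± 23.9 TPM (SD, n = 5), followed by Cd226 at 47.2 ± 1.47, Icos at 30.5 ± 5.54, Cd28 at 28.1 ± 3.81 and Slamf1 at 5.06 ± 1.38 TPM. The ranges of Cd2 and Cd226 overlapped, and so did those of Icos and Cd28, while Cd226 exceeded Icos in every library and Slamf1 was below all. In the libraries labelled MIT-BATF the order was Cd2 at 96.6 ± 26.1 TPM, Icos at 67.7 ± 6.55, Cd226 at 39.8 ± 3.52, Cd28 at 35.9 ± 6.57 and Slamf1 at 8.11 ± 2.09 TPM. Icos thus stood above Cd226 in all 5 libraries labelled MIT-BATF and below it in all 5 labelled MIT-Empty. Cd2 and Icos overlapped in range in the libraries labelled MIT-BATF, as did Cd226 and Cd28. Among all tested genes, 7.08% had a higher mean TPM than Icos in the libraries labelled MIT-BATF and 11.8% in those labelled MIT-Empty. For Slamf1 these shares were 27.8% and 36.6%.

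**Figure D3:**
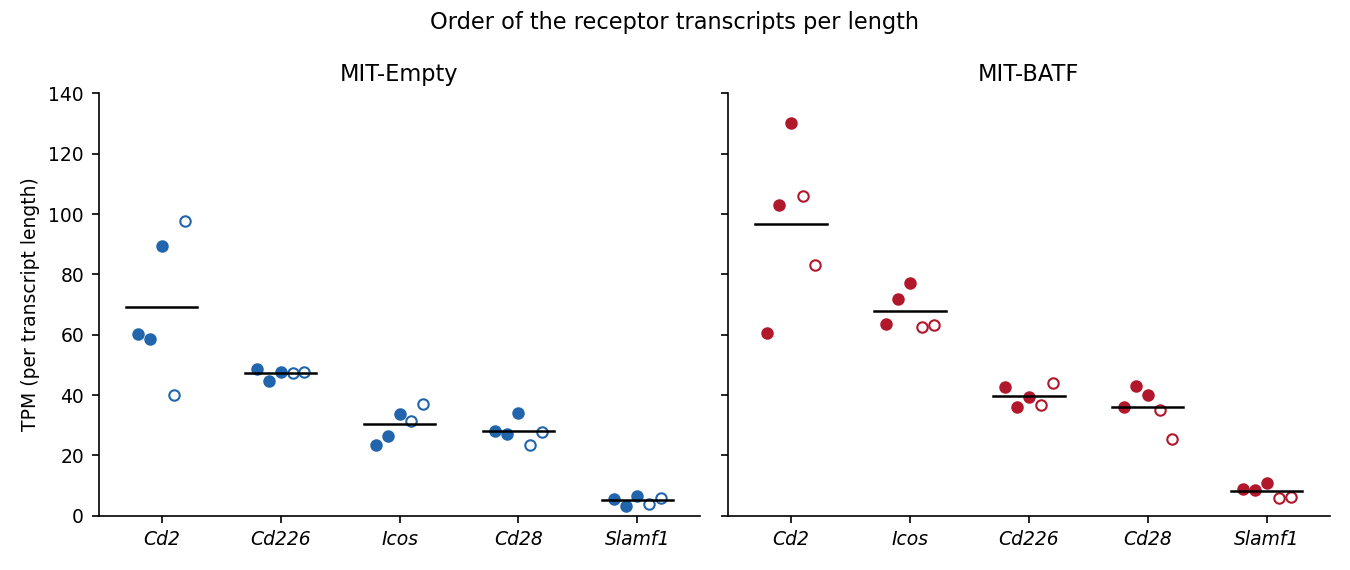
TPM of the 5 receptors, ordered by their mean within each group, for MIT-Empty (left, blue) and MIT-BATF (right, red), with a point per library in replicate order, open points for contained libraries and a line at the mean. Icos is in the third place at 30.5 TPM in MIT-Empty and in the second place at 67.7 TPM in MIT-BATF.

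The balance between CD28 and ICOS was described by the ratio of Icos to Cd28 TPM within each library. It was 1.76, 1.68, 1.94, 1.79 and 2.47 in replicates 1 to 5 labelled MIT-BATF, and 0.831, 0.980, 0.992, 1.34 and 1.34 in those labelled MIT-Empty. Icos exceeded Cd28 in all 5 libraries labelled MIT-BATF and in the contained replicates 4 and 5 of those labelled MIT-Empty. The ratio of Ctla4 to Cd28 TPM ranged from 2.45 to 3.67 in the libraries labelled MIT-BATF and from 1.89 to 3.01 in those labelled MIT-Empty, with overlap. That of Cd226 to Tigit ranged from 0.404 to 0.695 and from 0.370 to 1.07, respectively. These ratios reuse the values above and were not tested.

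Nearly all counts of Cd28, Icos and Cd2 came from a single annotated transcript of each gene. Cd28-201 took 95.6% to 97.5% of Cd28 counts and Cd2-201 98.1% to 100% of Cd2 counts. The 3241-nt Icos-202 took 95.03% to 99.0% of Icos counts, and the 810-nt Icos-201 the rest. Slamf1-202, which retains an intron, took 11.3% to 16.9% of Slamf1 counts, with overlapping groups. Cd226 differed from these in having 2 well-covered coding transcripts, the 2357-nt Cd226-201 and the 911-nt Cd226-202. The share of Cd226 counts assigned to Cd226-202 was 38.6%, 26.7%, 29.0%, 28.1% and 30.1% in replicates 1 to 5 labelled MIT-BATF. In those labelled MIT-Empty it was 25.0%, 22.5%, 25.5%, 23.6% and 18.3%. As deposited, the groups did not overlap, which held for 23 of 472 genes with at least 2 well-covered transcripts (4.87%). With the shared reads counted once, MIT-Empty replicate 3 moved to 38.8% and MIT-BATF replicate 2 to 25.2%, and the groups overlapped. Shares were given as a description because the assignment of reads between transcripts that share exons is itself an estimate.

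**Figure D4:**
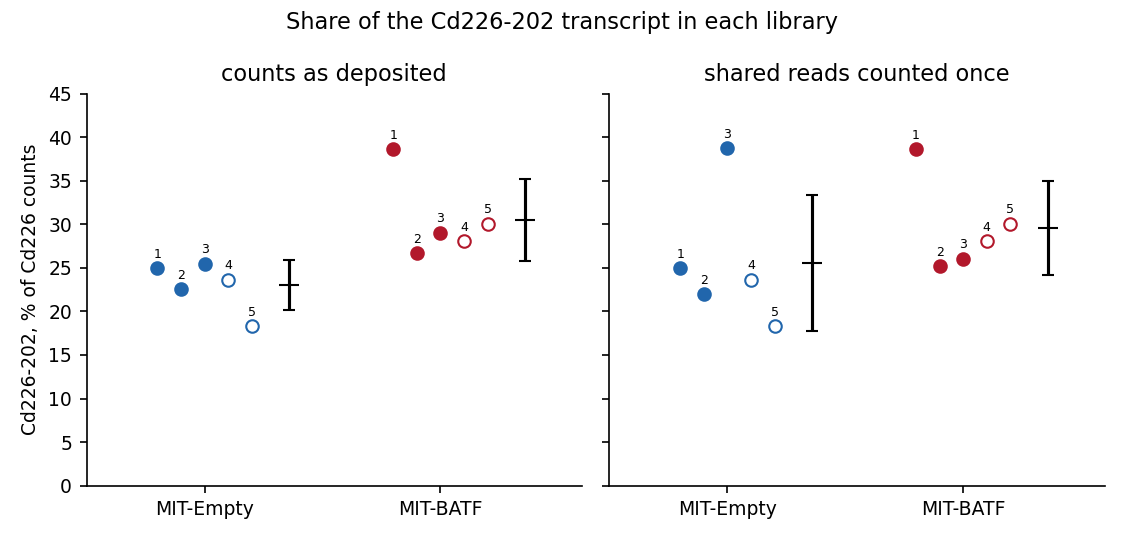
Percent of Cd226 counts assigned to the Cd226-202 transcript in each library, with the deposited counts in the left panel and, in the right panel, each shared read counted once, with numbered replicates, open points for contained libraries and bars for the mean and SD. The groups are apart on the left and overlap on the right, where MIT-Empty replicate 3 lies at 38.8%.

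The partners of these receptors were followed in 8 lists with 65 genes, of which 59 were tested. There 5 genes were called higher and 2 lower in the libraries labelled MIT-BATF (edgeR), 7 of 59 in all, where 4.58% of all tested genes were called in either direction. By direction, 2.16% of all tested genes were called higher and 2.43% lower. The median log2 fold change was 0.06 over the 59 genes and 0.01 over all genes. With the shared reads counted once, 2 of 58 were called higher and 1 lower, where 1.26% of all genes were called.

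Of 6 ligand genes, 4 were tested, 1 was called lower and 3 did not pass the test. Cd80, a B7 ligand of CD28 and CTLA-4, fell from 39.3 ± 10.7 to 16.6 ± 2.79 CPM (SD, n = 5; log2 fold change -1.25, adjusted p = 0.00193, and 0.0149 with shared reads counted once, edgeR). Cd86 was at 14.3 and 13.4 CPM in the libraries labelled MIT-Empty and MIT-BATF, and Cd48, the CD2 ligand, at 384 and 356 CPM. Icosl, the ligand of ICOS, and Nectin2, a ligand of CD226, were too low to be tested. Cd80 is also a gene of antigen-presenting cells. Summed TPM over 10 macrophage genes was 12.4 to 33.95 in the libraries labelled MIT-BATF and 21.9 to 161 in those labelled MIT-Empty. Of the 8 tested, 3 were called lower, beside 2.43% of all tested genes, namely Lyz2, Apoe and C1qc. Only Apoe was called lower with the shared reads counted once, beside 0.683% of all tested genes. Lyz2, the highest of the list by mean TPM, was at 9.26 ± 3.97 TPM under the MIT-BATF label and 28.8 ± 18.4 TPM under the MIT-Empty label (SD, n = 5). Csf1r, Adgre1 and Itgam were under 1 TPM in every library. The part of such cells, or of the melanocyte transcripts above, in the Cd80 values was not tested.

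Among 4 inhibitory receptors that share ligands with CD28 or CD226, Ctla4 was called higher and Tigit, Cd96 and Pvrig did not pass the test. Ctla4 rose from 236 ± 50.1 to 389 ± 18.5 CPM (SD, n = 5; log2 fold change 0.72, SE 0.15, adjusted p = 0.0150, edgeR). The call was lost with the shared reads counted once, where the log2 fold change was 0.77 and the adjusted p 0.0687. Tigit was at 106 ± 12.2 CPM in the libraries labelled MIT-BATF and 111 ± 47.2 CPM in those labelled MIT-Empty.

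None of the 5 tested of 7 other SLAM family receptors passed the test. Slamf7, encoding the receptor also known as CRACC, was near Slamf1 in its log2 fold change (0.68, SE 0.20, adjusted p = 0.0722). Slamf6 and Cd84 had log2 fold changes of 0.17 and 0.26. Of the 5 tested, 4 log2 fold changes were positive, and the largest in size was negative (-1.31, SE 0.46, adjusted p = 0.133, edgeR). None of the 7 tested of 9 genes for partners of the CD2, SLAMF1 and CD226 tails passed either. They included Sh2d1a, which encodes SAP (133 ± 56.7 CPM against 157 ± 27.1 CPM, SD, n = 5), the kinase gene Fyn, and Itgal and Itgb2, the chains of the integrin LFA-1 that associates with CD226. The LFA-1 chains had log2 fold changes of 0.03 and -0.01.

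Of 14 genes that act just downstream of CD28 and ICOS, 3 were called higher, none was called lower and 11 did not pass the test. Of all tested genes, 2.16% were called higher. With the shared reads counted once, 1 of the 14 was called higher, beside 0.575% of all tested genes. Grap2, which encodes GADS, the adaptor that can bind the CD28 motif printed above, rose from 35.9 ± 6.497 to 63.9 ± 10.4 CPM (SD, n = 5; log2 fold change 0.83, adjusted p = 0.00865, and 0.0361 with shared reads counted once, edgeR). Pik3cd and Pik3ca, which encode catalytic subunits of phosphoinositide 3-kinase, rose by 0.58 and 0.68 on the log2 scale (adjusted p = 0.0290 and 0.0492), and both calls were lost with the shared reads counted once (adjusted p = 0.204 and 0.217). Pik3r1, the regulatory subunit that binds the tyrosine motif, was at 33.4 ± 9.09 and 40.0 ± 6.51 CPM in the libraries labelled MIT-BATF and MIT-Empty. The proximal kinase gene Lck had a log2 fold change of -0.04.

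In the NF-kB branch, 1 of 6 genes was called lower and 5 did not pass the test. Rel, the c-Rel subunit of NF-kB, fell from 128 ± 15.7 to 87.0 ± 10.5 CPM (SD, n = 5; log2 fold change -0.55, adjusted p = 0.0335, edgeR), and the call was lost with the shared reads counted once (adjusted p = 0.160). Rela and Nfkb1, encoding other subunits, had positive log2 fold changes of 0.56 and 0.37 that did not pass. Of 8 transcripts known as outputs of costimulation, 1 was called higher and 7 did not pass. Maf, a transcription factor gene induced through ICOS in T helper cells, rose from 5.71 ± 2.68 to 20.7 ± 3.85 CPM (SD, n = 5; log2 fold change 1.90, SE 0.27, adjusted p = 0.00123, and 0.00344 with shared reads counted once, edgeR). Il2, the cytokine gene most closely tied to CD28, averaged 11.97 ± 9.87 CPM under the MIT-BATF label and 6.16 ± 7.98 CPM under the MIT-Empty label (SD, n = 5), a spread as large as the difference. Il2ra, encoding the high-affinity interleukin-2 receptor chain, showed 0.58 on the log2 scale (adjusted p = 0.120), and Ifng -0.22 (adjusted p = 0.816).

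None of 11 genes that restrain costimulation passed the test. The largest log2 fold changes were those of Zc3h12a, encoding Regnase-1 (0.58, adjusted p = 0.143), and Rc3h1, encoding Roquin-1 (0.46, adjusted p = 0.132). Both proteins promote decay of Icos mRNA. The most abundant per length of the 11, Dgka, encodes a kinase that removes diacylglycerol and was at 92.5 ± 23.0 and 79.6 ± 14.4 CPM in the libraries labelled MIT-BATF and MIT-Empty. Cblb, a ubiquitin ligase gene that raises the need for CD28, was at 135 ± 25.7 and 120 ± 15.7 CPM, respectively.

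**Figure D5:**
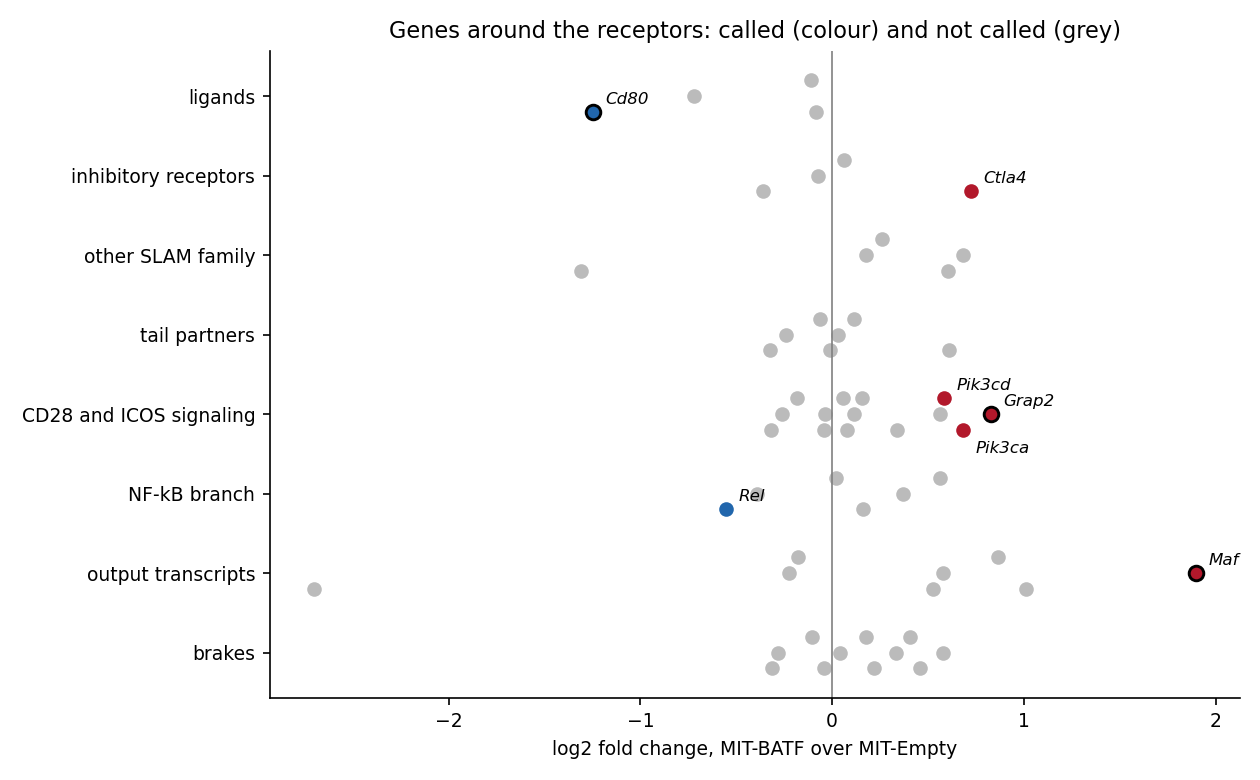
Log2 fold change, MIT-BATF over MIT-Empty, of the 59 tested genes of the 8 lists (rows). Red and blue points were called higher and lower from the deposited counts (adjusted p under 0.05, edgeR), grey points were not called, and black rims mark calls that held with the shared reads counted once, namely Cd80, Grap2 and Maf.

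The genes whose level pattern was most like that of each receptor were found over the 10 libraries as those with the smallest root mean square difference between log2 CPM values, each centred on its mean, among 6077 genes. A gene flat at its own mean would differ from Icos by 0.617. Group means were not removed, so a similar difference between the groups enters this likeness. The nearest to Icos were Gpr171 (0.219), Cxcr6 (0.224) and Tm6sf1 (0.237). Their log2 fold changes were 0.82, 0.95 and 0.99, respectively (adjusted p = 0.0126, 0.00140 and 0.00625, edgeR). With the shared reads counted once, the adjusted p values were 0.295, 0.0269 and 0.0491 (edgeR). For Slamf1, whose own value was 0.446, they were Irf1 (0.167), Inpp5k (0.175) and Fam76a (0.177). For Cd2 (0.430) they were Ostf1 (0.114), Brms1 (0.145) and Sla2 (0.146), for Cd226 (0.321) Dpy30 (0.0992), Fundc2 (0.102) and Orc4 (0.104), and for Cd28 (0.233) Spin1 (0.0685) and H3f3b (0.0882). The libraries share their depth, scaling and, within the 4 pairs, their reads, so that these are descriptions of likeness in these samples only.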

How the data were processed

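RNA-seq was measured in 10 libraries, 5 per group. The authors processed the reads with nf-core/rnaseq 1.4.2 and quantified transcripts of mm10 with Salmon (version not given in the sources used here), and deposited for each library an estimated count and a TPM value per transcript. The kit does not mark strand. The deposited estimated counts were summed per gene over 112092 transcripts with the GENCODE M21 annotation, which left 305 transcripts without a gene (0.0617% to 0.0890% of counts), and were rounded to whole numbers. Groups were taken from the sample labels. No column of another sample was in the files.

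Genes passing filterByExpr were tested with edgeR 4.0.16 (R 4.3.3), using TMM scaling, a quasi-likelihood fit on the condition alone and Benjamini-Hochberg adjustment over all tested genes, with a threshold of 0.05. CPM values used TMM-scaled library sizes. Standard errors and 95% intervals came from the quasi-likelihood F statistic. A library counted as contained where under 1% of genes with at least 5 counts exceeded the holder. Alternatives were DESeq2 1.42.0, RLE size factors, no filter, a mean count of at least 50, transcript length offsets, limma 3.58.1 on log2(TPM + 1), the replicate number as a block, and each library left out. The edgeR fit was tested on simulated counts of 10 independent libraries, none of them contained in another. Likeness used genes averaging 3 or more on the log2 CPM scale, with a prior count of 2, and the 3 nearest genes were named. Transcript shares were compared for genes with at least 500 counts and at least 2 transcripts of 10% or more.

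The members and gene lists were chosen with earlier results of these data known, so that none gives independent support. Named genes were the 5 receptors, every list gene past the threshold, the gene of each list with the highest mean TPM, and the 3 genes most like each receptor, not counting pseudogenes, receptor gene segments or predicted genes. Other list genes were named for their known role after their values were seen, and the most abundant marker was named only where the text turned on it. A few genes that this rule or these lists hold, none of them called, are not reported here. Totals of 6534472 to 34102086 counts set the precision of each library.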

Additional observations from a re-analysis of the deposited data

Results flagged for a closer look

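In 4 of 32 sets of 5 libraries, the highest or lowest library stood apart from the rest by Dixon's criterion (the gap to its nearest neighbour as a share of the range). With independent libraries, chance alone gives this in about 1 set in 20. The contained libraries share reads with their holders, so that rate does not strictly apply to these sets. Cd28 was at 207.0 CPM in MIT-Empty replicate 4, below the 235.7 to 238.4 CPM of the other MIT-Empty libraries. Cd226 was at 120.1 CPM in MIT-Empty replicate 3, below the 146.8 to 157.6 CPM of the others. Pik3cd was at 19.7 CPM in MIT-Empty replicate 5, below the 26.0 to 28.1 CPM of the others. The Cd226-202 share of Cd226 counts was 38.6% in MIT-BATF replicate 1, the library with the highest mitochondrial share, above the 26.7% to 30.1% of the others. The cause of none of these was tested.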

How the results depend on the processing

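Icos, Cd28, Cd226 and Cd2 kept their direction and their side of the threshold in all 21 alternatives, and Slamf1 in 20 of 21, DESeq2 giving 0.64 past the threshold. With each library left out, the log2 fold changes ranged from 1.05 to 1.29 for Icos (adjusted p 0.00104 to 0.00958, edgeR), 0.20 to 0.38 for Cd28, -0.49 to -0.29 for Cd226, 0.30 to 0.66 for Cd2 and 0.49 to 0.75 for Slamf1. Counts of calls moved more. All genes called higher, 254 as deposited, numbered 64 with shared reads counted once, 37 in replicates 1 to 3 alone, 512 by DESeq2, 89 by limma on log2(TPM + 1) and 140 to 352 with 1 library left out. Those called lower, 286 as deposited, numbered 76, 59, 741, 90 and 147 to 420 in the same order, and 546 with no filter. Leaving out MIT-Empty replicate 2 gave 140 higher and 147 lower, MIT-BATF replicate 2 gave 149 and 172, and MIT-BATF replicates 3 and 4 gave 168 and 166 higher. The number of list genes called higher, 5 as deposited, was 2 with shared reads counted once and 1 in replicates 1 to 3 alone. It was 3 with length offsets, 1 by limma and 2 to 7 with 1 library left out. It was 2 without MIT-Empty replicate 2, and 3 when the library left out was MIT-BATF replicate 2, 3 or 4 or MIT-Empty replicate 3 or 5. The number of list genes called lower, 2 as deposited, was 1 with shared reads counted once and 1 in replicates 1 to 3 alone. It was also 1 with no filter, with length offsets and by limma, and 1 to 3 with 1 library left out. That number was 1 when the library left out was MIT-BATF replicate 2, 3, 4 or 5 or MIT-Empty replicate 2, 3 or 5. Fewer samples enter the fits with a library left out, and the cause of the other shifts was not tested.

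Same-numbered libraries of the groups did not all deviate together (correlations of 0.13, 0.00, 0.22, -0.05 and 0.02 for numbers 1 to 5). For numbers 1 and 3 alone, the same-numbered library was the closest match in the other group. Number 3 reached 0.35 with the shared reads counted once. The numbers were not taken as pairs in the main fit. With the replicate number as a block, the log2 fold change of Icos was 1.14 (adjusted p = 0.00696, edgeR), 235 genes were called higher and 239 lower, and 1 list gene was called lower. In that fit Slamf1 gave 0.64 (adjusted p = 0.0512) and Cd226 -0.41 (adjusted p = 0.112), neither past the threshold. After seeing the data, the block was added to the counts with shared reads taken once, giving 80 higher and 94 lower with 2 and 1 of the list genes, and DESeq2 on those counts gave 3 and 1. The contained libraries limit the evidence to fewer independent libraries than 5 per group. Slamf1, at 139 to 1904 counts per library, had the fewest counts behind it.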
